A study of Mus musculus with 1 sample.

Results

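The cells described here are the Scgb3a1- and Cyp2f2-high epithelial cells of mouse gastric organoids, 267 of 1892 kept cells, or 14.1% (95% Clopper-Pearson interval 12.6% to 15.8%). The only library analysed was made from organoids with a wild type genotype and no treatment, taken from stomach and harvested on day 7, and every cell compared below shares that genotype, treatment and day. Organoids are epithelial cultures grown from tissue cells, here dissociated in 0.05% trypsin-EDTA (30 min, 37 °C) before droplet RNA sequencing with a 10x Genomics 3' kit, per the labels' protocols. The sources used here do not give the age, strain or number of animals, nor the region of the stomach. Other organoid genotypes that the series text names were not analysed here.

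The cells were chosen by their own counts of Scgb3a1 and Cyp2f2. A barcode was kept if it had 500 or more genes with a unique molecular identifier (UMI, 1 per captured RNA molecule) and no more than 20% of its UMIs from mitochondrial genes. For 8 gene sets, the UMIs of the set per 10000 gene UMIs were transformed as ln(1 + x) and expressed as a z-score over kept cells. The chosen cells had Scgb3a1+Cyp2f2 as their highest z-score, at 1 or more. The levels of both genes in these cells are therefore a description of the choice. The class is a range of a score, not a separate cell type, and it was set against the other 1625 kept cells. A stricter reference was the 523 baseline cells, in which no set reached a z-score of 1. With 1 library there was no replicate. No difference was tested, and every interval is a 95% interval that covers counting error only.

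Secretoglobins are small secreted proteins of mucosal surfaces, and Scgb3a1 encodes one that is known from the airway lining. Cyp2f2 encodes a cytochrome P450 enzyme that oxidises foreign aromatic compounds and is, with the carbonyl reductase gene Cbr2, a classical marker of club cells, the secretory cells of the small airways. Aox3 encodes an aldehyde oxidase, and Trf encodes transferrin, the carrier of iron in plasma. In the stomach the usual secretory cells are pit cells with Tff1 and mucin, mucous neck cells with Tff2, chief cells with pepsinogens and parietal cells with the acid pump.

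The stretches of 250 bases before the RefSeq start of transcription of the genes that chose the cells are shown because these 2 genes define the cells described. They were taken from a set of RefSeq promoter sequences on GRCm38.p6. The set used here held Scgb3a1, Cyp2f2, Cbr2 and Aox3, which are 4 of the 5 marker genes, and lacked the fifth, Trf. The Scgb3a1 stretch is chr11:49663345-49663594 on the plus strand. The Cyp2f2 stretch is chr7:27119705-27119954 on the plus strand. Capitals mark matches to a motif. Both strands were searched for 5 motifs, which were the cores of forkhead, ETS, GATA and C/EBP factor sites and the TATA box.
Scgb3a1: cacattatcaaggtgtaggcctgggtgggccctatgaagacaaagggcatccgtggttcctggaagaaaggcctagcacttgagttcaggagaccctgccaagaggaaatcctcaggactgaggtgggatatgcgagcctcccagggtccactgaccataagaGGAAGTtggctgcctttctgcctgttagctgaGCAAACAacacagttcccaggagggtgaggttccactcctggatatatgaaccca
Cyp2f2: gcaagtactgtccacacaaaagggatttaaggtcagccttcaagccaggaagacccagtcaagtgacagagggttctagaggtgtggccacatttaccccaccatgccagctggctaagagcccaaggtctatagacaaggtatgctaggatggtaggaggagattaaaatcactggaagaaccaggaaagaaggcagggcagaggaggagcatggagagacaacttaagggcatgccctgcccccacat
In the Scgb3a1 stretch the base nearest the start lay 49 bases before it for a forkhead match on the minus strand and 82 bases before it for an ETS match. The Cyp2f2 and Aox3 stretches held no match to the 5 motifs. The Cbr2 stretch (chr11:120732022-120732271, minus strand) held 1 forkhead match, whose nearest base lay 223 bases before the start. Of 32851 promoter stretches of this length, 17.8% held the letters searched for forkhead factors, TGTTTNC. The letters for ETS factors, GGAAGT, were in 19.7% of these stretches. The letters of the TATA box, TATAAA, were in 12.4%. For GATA factors the letters were AGATAA, found in 9.99%. The site searched for C/EBP factors, TTNNGCAA, was found in 9.56%. The marked matches do not overlap each other.

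The deposited library held 20236916 gene UMIs in 1991 barcodes, of which 99 were left out by the 2 criteria. The chosen cells had a median of 8478 UMIs (range 2822 to 46342) and 2184 genes per cell, against 8514 UMIs and 2224 genes in the other kept cells. Their median mitochondrial share was 4.26%, against 4.01%. All cells carried 1 of 2 multiplexing tags, oligonucleotides added to cell suspensions before pooling, as their highest tag. The leading tag held a median of 75.6% of a cell's tag UMIs in the chosen cells, the lowest value of the 9 classes, against 83.8% in the other kept cells. The part of this difference in the results below was not tested.

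Scgb3a1 (ENSMUSG00000064057, GENCODE M21 on GRCm38, chromosome 11, 49663610 to 49665118, plus strand, protein-coding) had a UMI in 267 of 267 chosen cells. Its level per cell ran from 20.6 to 605 UMIs per 10000, with a median of 68.0 and quartiles of 38.2 and 120. In the other kept cells the median was 0.91, and 939 of 1625 cells had a UMI. The chosen cells thus spanned a wide range, from cells near the threshold to cells with 673 Scgb3a1 UMIs. Summed over cells, the level was 8528 UMIs per 1000000 gene UMIs (CPM) in the chosen cells and 477 CPM in the others, a ratio of 17.9 (17.4 to 18.3). The chosen cells held 14.7% of all gene UMIs of kept cells and 75.5% of the Scgb3a1 UMIs. By UMIs, Scgb3a1 was the 7th most abundant gene in them and the 253rd in the others.

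Cyp2f2 (ENSMUSG00000052974, chromosome 7, 27119909 to 27133660, plus strand, protein-coding) was far less abundant. It had a UMI in 232 of 267 chosen cells and in 677 of 1625 others, with medians of 3.03 and 0 UMIs per 10000. Its level was 382 CPM against 111 CPM, a ratio of 3.44 (3.20 to 3.71). The score was therefore set mainly by Scgb3a1. After each cell was thinned to 3000 UMIs, which left out 1 chosen cell, 160 chosen cells had UMIs of both genes, 106 had Scgb3a1 alone and 0 had Cyp2f2 alone.

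The score had no gap at its threshold. Of 347 cells with a z-score of 1 or more, 80 had another set higher and were not chosen, most often the mitotic set Top2a+Mki67+Aspm+Hmmr (19 cells), the replication set Mcm3+Mcm5+Mcm6+Pcna (18 cells) and Cxcl2+Cxcl5 (15 cells). Conversely 81 chosen cells also reached a z-score of 1 in another set, 30 of them in the replication set. There were 31 chosen cells between 1 and 1.2, and 67 cells lay between 0.8 and 1. Just inside the threshold Scgb3a1 was at 2443 CPM and Cyp2f2 at 267 CPM, and just outside it they were at 1668 and 261 CPM. Trf was at 181 CPM inside and 191 CPM outside, and Cp, the plasma copper oxidase ceruloplasmin, at 124 and 114 CPM, so that these values were close on the 2 sides of the threshold. Tmem176a, a membrane protein gene described below, was at 3394 CPM (3220 to 3575) inside and 2945 CPM (2828 to 3066) outside. These intervals do not overlap, but they leave out the spread between cells, so they do not show a step. Aox3 was at 26.2 CPM (13.1 to 46.9) inside and 9.91 CPM (4.28 to 19.5) outside.

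**Figure D1:**
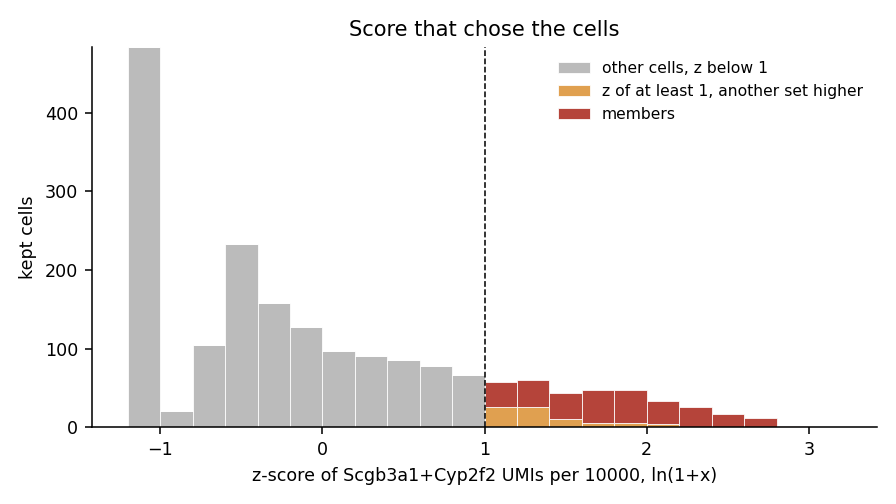
Number of kept cells by z-score of the Scgb3a1+Cyp2f2 set, in steps of 0.2, with chosen cells, cells at or above 1 that had another set higher, and cells below 1 stacked. The leftmost bar holds the 483 cells with no UMI of either gene, and the counts run down without a gap across the dashed threshold at 1.

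The 3 markers that the rule did not use were higher in the chosen cells. They were named as markers with earlier results of these data known, so their higher levels describe that choice. Trf (ENSMUSG00000032554, chromosome 9, 103204001 to 103230444, minus strand, protein-coding) had a UMI in 159 of 267 chosen cells and in 373 of 1625 others. Its level was 342 CPM against 77.5 CPM, a ratio of 4.41 (4.06 to 4.79), and 90.2 CPM in baseline cells, a ratio of 3.79. Trf was uneven among the chosen cells, with a median of 1.5 and a highest value of 57.8 UMIs per 10000. Cbr2 (ENSMUSG00000025150, chromosome 11, 120729489 to 120732114, minus strand, protein-coding) had a UMI in 46 of 267 and in 92 of 1625 cells. It was at 32.5 CPM against 9.03 CPM, a ratio of 3.6 (2.76 to 4.67), and at 12.2 CPM in baseline cells. Aox3 (ENSMUSG00000064294, chromosome 1, 58113130 to 58200698, plus strand, protein-coding) had a UMI in 60 of 267 and in 65 of 1625 cells. It was at 32.8 CPM against 5.13 CPM, a ratio of 6.4 (4.75 to 8.64). At this depth most chosen cells had no Cbr2 or Aox3 UMI, so absence from a single cell cannot be read from these data.

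The 9 classes of cells are the chosen cells, 7 classes with another set highest and the baseline cells. All 5 markers, named with earlier results of these data known, were highest in the chosen cells. Scgb3a1 ran from 236 CPM in Ndrg1+Ly6m-high cells to 1061 CPM in mitotic cells among the other classes, and 45.9% to 67.2% of their cells had a UMI. After thinning, these shares were 23.7% to 49.2%, so they differed between classes at equal depth. How far UMIs of free RNA in the droplets set these shares was not tested. The Trf order below the chosen cells was replication-set cells (161 CPM), mitotic cells (132 CPM), baseline cells (90.2 CPM) and Cyba+Gsta1+Gsta2-high cells (73.9 CPM). The first place in this order rests on 1 replication-set cell with 52 Trf UMIs, without which that class was at 129.6 CPM, below the mitotic cells. Trf was lowest in Ndrg1+Ly6m-high cells (27.1 CPM) and Psca+Prss22-high cells (26.4 CPM), whose counting intervals overlap.

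Over 6682 genes with at least 200 UMIs in kept cells, 127 were at least 1.5 times higher in the chosen cells than in the other kept cells, which is 1.9% of genes, and 444 were at least 1.5 times lower, which is 6.64%. The median ratio over all these genes was 0.94. Against baseline cells, 158 genes (2.36%) were higher and 280 (4.19%) lower by this measure, with a median ratio of 0.97. In both comparisons, which share the chosen cells and the baseline cells, 85 genes were higher and 225 were lower. The counts depend on the reference: lower genes were more frequent than higher ones in both, and the split was 127 to 444 against all other kept cells and 158 to 280 against baseline cells.

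The 20 highest ratios among genes also seen in at least 10% of the chosen cells and with at least 200 UMIs in all were led, after Scgb3a1, by Trf, Cbr2 and Cyp2f2. Aox3, whose ratio of 6.4 was higher than that of Trf, had 185 UMIs and was not ranked. Next came Khdc1a at 341 CPM against 115 CPM (ratio 2.97, 2.75 to 3.21), a member of a family of similar genes among which UMIs may be divided. Lbp, which encodes the plasma protein that binds bacterial lipopolysaccharide, was at 116 CPM against 39.7 CPM (2.92, 2.56 to 3.33). Muc4, a large mucin anchored in the membrane, was at 39.3 CPM against 13.5 CPM (2.92, 2.31 to 3.66). Cp was at 157 CPM against 64.9 CPM (2.42, 2.17 to 2.70), and Lrg1, a leucine-rich glycoprotein of plasma, was at 89.0 CPM against 40.3 CPM (2.21, 1.91 to 2.55).

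Tmem176a and Tmem176b, neighbouring genes of membrane proteins, were the most abundant of the other leading genes. Tmem176a was at 3843 CPM in the chosen cells and 1436 CPM in the others (2.68, 2.62 to 2.74), and Tmem176b at 2571 and 1087 CPM (2.37, 2.30 to 2.43). Their medians per cell were 39.3 against 6.71 and 24.8 against 7.10 UMIs per 10000. The groups overlapped, since single cells among the others reached 199.8 UMIs per 10000 for Tmem176a. Mmp7, a secreted metalloprotease, was at 205 CPM against 88.6 CPM (2.32), and at 126 CPM in baseline cells. Slc2a12, a sugar transporter gene, had a ratio of 2.74, Naip6 of 2.52, Ccdc117 of 2.45, Mob3b of 2.32, Edem3, which acts in the disposal of misfolded glycoproteins, of 2.28, Sectm1b of 2.26, Afap1l1 of 2.18 and Tmem173, the innate immune sensor STING, of 2.13. Naip6 belongs to a family of near-identical copies, and its UMIs may be divided among them. The 20 leading genes were picked by their level in the chosen cells, and among the 9 classes those that were higher elsewhere were Lrg1, at 98.5 CPM in Cxcl2+Cxcl5-high cells, against 89.0 CPM in the chosen cells, and Tmem173, at 61.5 CPM there and 60.6 CPM in the chosen cells.

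**Figure D2:**
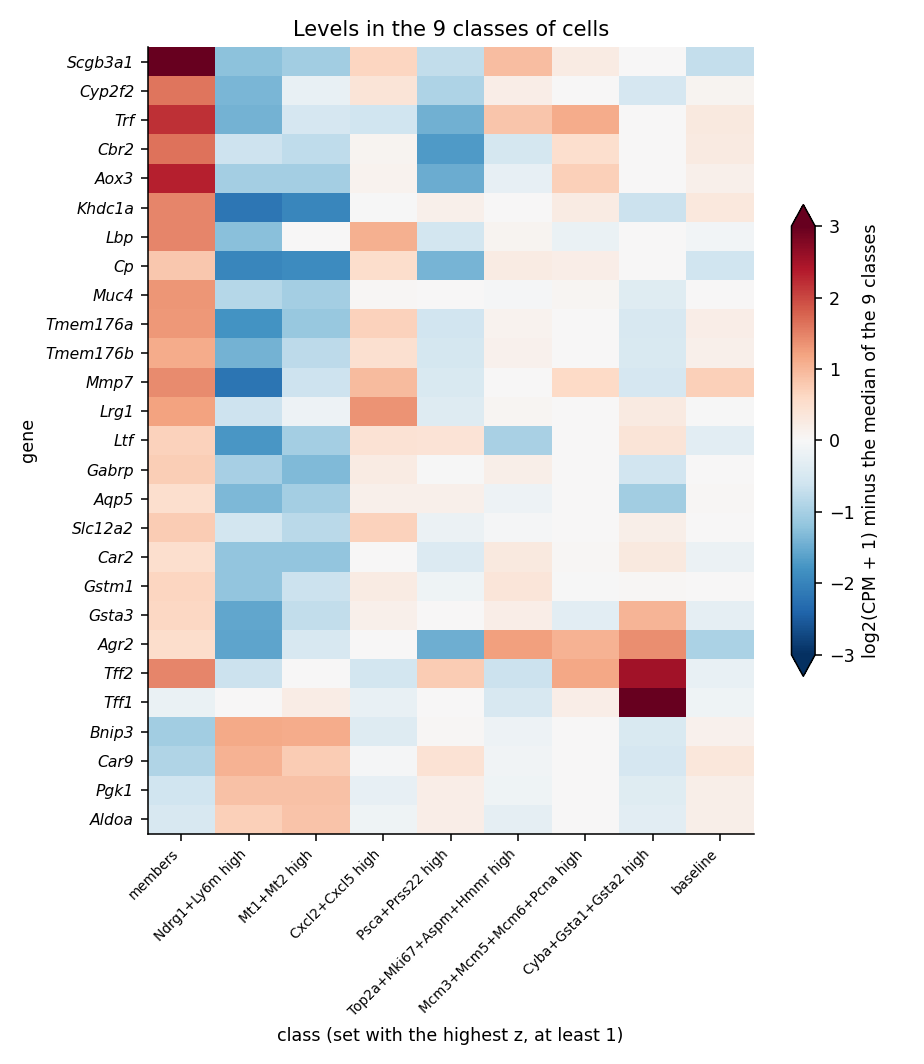
Levels of named genes (vertical axis) in the 9 classes of cells (horizontal axis), as log2(CPM + 1) minus the median of the 9 classes, red above and blue below. The chosen cells, in the left column, have the highest value for the 5 markers, Khdc1a, Lbp, Cp, Muc4 and both Tmem176 genes, and the lowest for Bnip3, Car9, Pgk1 and Aldoa.

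Several of these genes were higher at higher scores. In 6 bins of the z-score, from cells below -1 to cells at 1.5 and above, Trf was at 22.2, 50.7, 114, 156, 266 and 374 CPM. Cp was at 33.9, 41.0, 115, 122, 129 and 172 CPM, and Tmem176a at 700, 1086, 2163, 2795, 3025 and 3965 CPM. Each of these 3 genes was higher in every bin than in the bin before it, with no step confined to the threshold. For Cp the largest step lay at 0. Its intervals in the 3 bins from 0 to 1.5 overlap (102 to 130, 108 to 138 and 113 to 148 CPM). Cbr2 was at 3.66, 6.94, 14.2, 19.2, 13.8 and 39.1 CPM, so it was lower between 1 and 1.5 than between 0.5 and 1. Aqp5, the gene of a water channel, ran from 810 CPM in the lowest bin to 1680 CPM between 1 and 1.5, and Epcam, an adhesion gene of epithelium, stayed between 623 and 761 CPM. The median depth of the bins lay between 7031 and 9903 UMIs per cell and was lowest in the bin below -1.

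**Figure D3:**
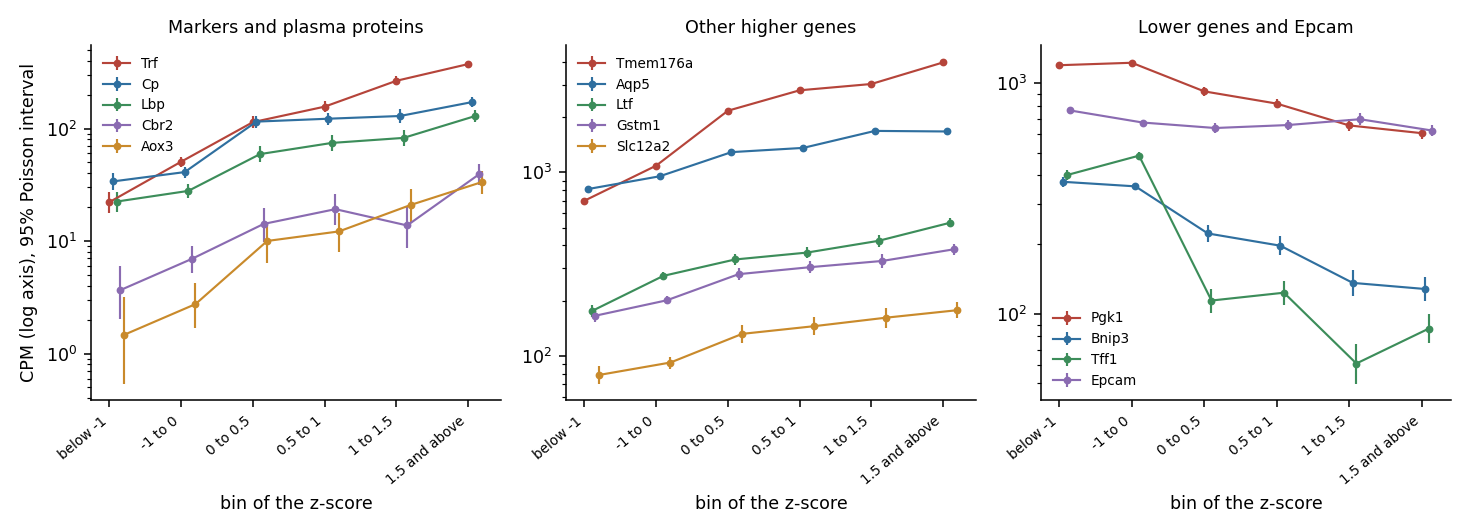
Levels in CPM on a log axis, with 95% Poisson intervals, in 6 bins of the Scgb3a1+Cyp2f2 z-score, the last 2 of which hold the chosen cells together with some cells in which another set was higher. Trf, Cp, Lbp and Tmem176a are higher from bin to bin, while Pgk1 and Bnip3 are lower in the upper bins and Epcam is nearly level.

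Genes of iron handling were measured because Trf was a marker. Trf is itself in the list, so the count of higher genes includes the gene that prompted it. Of 19 genes in the list, 11 had enough UMIs to be counted, of which 4 were at least 1.5 times higher and 1 was lower, beside 1.9% and 6.64% of all counted genes, with a median ratio of 1.03 against 0.94 over all genes. Beside Trf and Cp, the higher genes were Ltf and Tfrc. Ltf, the secreted iron-binding protein lactotransferrin, was at 520 CPM against 274 CPM (1.90, 1.79 to 2.01). Tfrc, the transferrin receptor, was at 54.1 CPM against 36.1 CPM (1.5, 1.25 to 1.79), at the limit for a higher gene. Its ratio was 1.41 without its leading chosen cell, and 1.62 and 1.36 in cells led by tags CMO301 and CMO302. Iron storage genes were not among the higher genes. Fth1, ferritin heavy chain, was at 15396 CPM against 15012 CPM (1.03), and Ftl1, the light chain, was at 1765 CPM against 2337 CPM. Lcn2, which encodes a protein that captures bacterial iron carriers, was at 108 CPM against 176 CPM (0.61), with a UMI in 37.8% and 36.2% of cells. It was at 846 CPM in Cxcl2+Cxcl5-high cells. In addition, 1 Cyba+Gsta1+Gsta2-high cell held 208 of the 3026 Lcn2 UMIs of the other kept cells. Against baseline cells Lcn2 lay on the other side, at a ratio of 1.21.

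Among oxidising and reducing enzymes, 17 of 40 genes were counted, of which 2 were higher (Cbr2 and Adh7) and 3 lower (Ephx1, Cyp2s1 and Aldh3a1), where 1.9% and 6.64% of all counted genes were. Cbr2 was already a marker of these cells, so its place in this count was known beforehand. Adh7, an alcohol dehydrogenase of stomach lining, was at 21.3 CPM against 10.7 CPM (2.0, 1.48 to 2.68). It was higher still in Cyba+Gsta1+Gsta2-high cells, at 37.0 CPM. Cyp2s1, another cytochrome P450 gene, had a ratio of 0.55, Aldh3a1 of 0.47 and the epoxide hydrolase gene Ephx1 of 0.63. Aldh3a1 had a UMI in 10.1% of chosen and 9.97% of other cells, and its ratio was 1.03 without the Cyba+Gsta1+Gsta2-high cells and 1.2 against baseline cells. The median ratio of the list was 0.97 against 0.94 over all genes. Against baseline cells 3 genes were higher and 1 lower, beside 2.36% and 4.19% of all counted genes, with a median ratio of 1.2 against 0.97 over all genes. Conjugating enzymes outside the rule had 14 of 22 genes counted, with 4 higher and 0 lower, beside the same 1.9% and 6.64% of all counted genes, and a median ratio of 1.11. The higher genes were the glutathione transferase genes Gsta3 (250 against 148 CPM, 1.68), Gstm1 (372 against 222 CPM, 1.68) and Gstm2 (233 against 155 CPM, 1.5), and the microsomal Mgst2 (40.3 against 26.0 CPM, 1.55). Gstm1, Gstm2 and Gsta3 have similar family members, so UMIs may be divided among copies. Against baseline cells 3 of these 14 genes were higher by 1.5 times, beside 2.36% of all counted genes, and Gstm2 was at 1.47. The glutathione transferase genes Gsta1 and Gsta2 belong to a set of the rule and were left off this list. Gsta1 was at 24.0 against 150 CPM (0.16) and at 1.45 (1.05 to 1.996) against baseline cells, and Gsta2 had 2 UMIs in the chosen and 62 in the other kept cells (0.19, 0.02 to 0.71).

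Genes of secretion and fluid transport were next. Of 10 counted genes of secreted defence, 3 were higher and 3 lower, beside 1.9% and 6.64% of all counted genes, and the median ratio was 1.18 against 0.94. Muc4, Ltf and Pglyrp1, a secreted peptidoglycan-binding protein (527 against 334 CPM, 1.58), were higher. Lcn2, the galectin gene Lgals3 (253 against 431 CPM, 0.59) and the protease inhibitor gene Slpi (7.11 against 14.7 CPM, 0.48) were lower. The most abundant gene of this list, Wfdc2, was at 5644 CPM against 4510 CPM (1.25). Against baseline cells 5 genes of the list were higher and 2 lower, beside 2.36% and 4.19% of all counted genes. Of 11 counted genes of fluid and ion transport, 3 were higher and 1 lower, again beside 1.9% and 6.64% of all counted genes. The higher ones were the sodium-potassium-chloride cotransporter gene Slc12a2 (182 against 103 CPM, 1.76), the carbonic anhydrase gene Car2 (392 against 236 CPM, 1.66) and Aqp5 (1697 against 1048 CPM, 1.62). Slc4a4, a bicarbonate cotransporter gene, was lower at 28.8 against 70.1 CPM (0.41). Aqp5 had a median of 15.7 UMIs per 10000 in the chosen cells and 7.95 in the others, and against baseline cells its ratio was 1.38, below 1.5. Genes of the endoplasmic reticulum and secretory path, 18 of 20 counted, had a median ratio of 1.06. Xbp1, a transcription factor of secretory cells, was the only one past 1.5 times, at 491 against 307 CPM (1.60), and its ratio to baseline cells was 1.45. Against baseline cells the only gene of this list past 1.5 times was Agr2, described with the neck cell genes, at 2.87.

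The chosen cells were low in genes of hypoxia and glycolysis. Of 14 counted genes of this list, 0 were at least 1.5 times higher and 8 were lower, beside 1.9% and 6.64% of all counted genes, with a median ratio of 0.66 against 0.94. Bnip3, a mitophagy gene induced by low oxygen, was at 124 CPM against 312 CPM (0.40), Car9, a carbonic anhydrase of the cell surface, at 67.0 against 162 CPM (0.42), and Ero1l at 92.4 against 235 CPM (0.39). The glycolytic enzyme gene Pgk1 was at 609 against 1097 CPM (0.56) and Aldoa at 1141 against 1860 CPM (0.61). The remaining lower genes were Egln3 (0.57), Vegfa (0.65) and Ankrd37 (0.66). Against baseline cells 6 of the 14 were lower, beside 4.19% of all counted genes, with a median ratio of 0.69, and Bnip3 was at 0.44. Bnip3, Car9, Pgk1, Aldoa and Ldha had their lowest level of the 9 classes in the chosen cells. Per cell the groups overlapped: Pgk1 had a median of 5.27 UMIs per 10000 in the chosen cells and 9.71 in the others. One set of the rule was led by Ndrg1, itself a gene induced by low oxygen, and cells with that set highest (205 cells) were by construction among the other kept cells but not among the baseline cells.

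**Figure D4:**
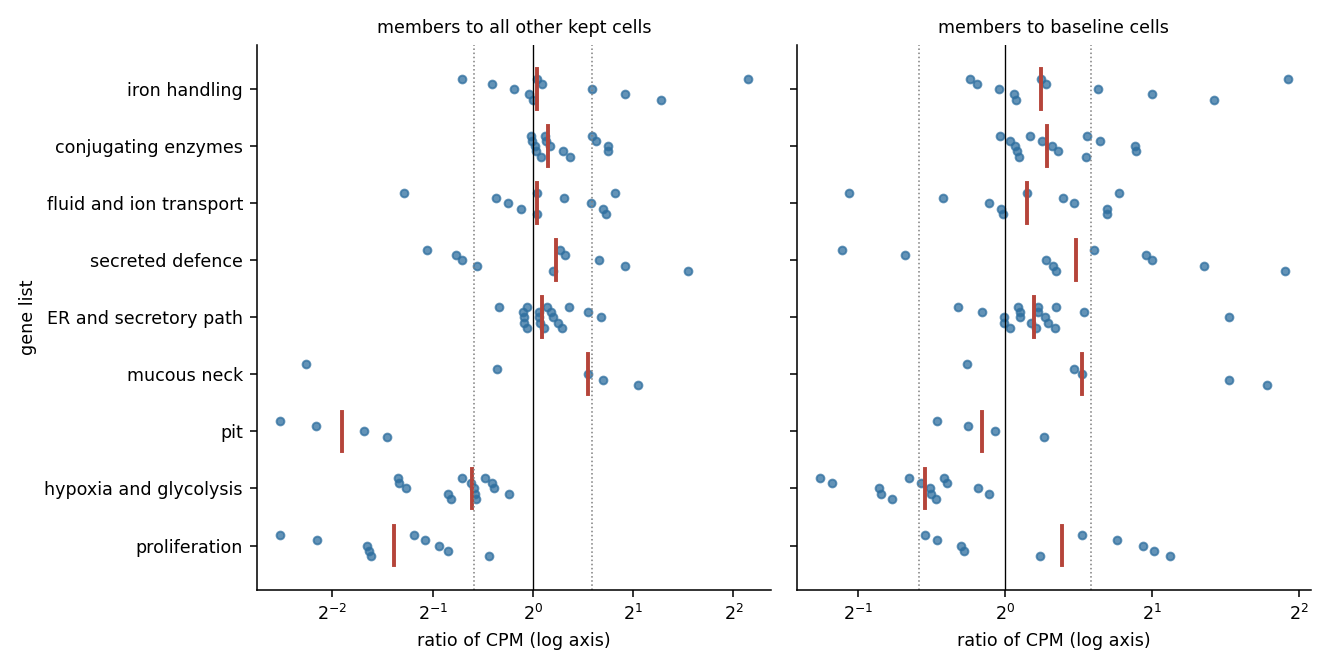
Ratio of CPM (log axis) of the chosen cells to all other kept cells (left) and to baseline cells (right) for each counted gene of 9 lists, with list medians as red bars and dotted lines at 1.5 times in either direction. The hypoxia and glycolysis list lies below 1 in both panels (medians 0.66 and 0.69), whereas the proliferation list has medians of 0.38 and 1.31. The pit list, which includes the rule gene Psca, has medians of 0.27 and 0.90.

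Cell cycle genes depended on the reference. Of 10 counted proliferation genes outside the rule, 9 were at least 1.5 times lower than in all other kept cells (median ratio 0.38), beside 6.64% of all counted genes. Against baseline cells 4 were higher and 0 lower (median ratio 1.31), beside 2.36% and 4.19% of all counted genes, and the interval of 1 of the 4, Ccnb1, holds 1 (1.92, 0.82 to 4.50). The rule itself placed cells with high mitotic or replication scores elsewhere, and 13 and 30 of the chosen cells still reached a z-score of 1 in those sets. Mki67 had a UMI in 14 of 267 chosen cells, and Top2a in 49. For 6 of the other 7 sets the median was 0 UMIs per 10000 both in the chosen and in the other kept cells, and for Mt1+Mt2, the metallothionein set, it was 8.35 and 10.7.

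Markers of other stomach and airway cells were then read against the label. All 4 counted pit genes were lower than in the other kept cells, beside 6.64% of all counted genes, with a median ratio of 0.27. Of the 4, Psca (0.17) is a gene of the rule, which placed cells high in its set among the others. Its lower level was thus set by the choice, and the count and the median include it. Against baseline cells 0 of the 4 were lower by 1.5 times, beside 4.19% of all counted genes, with a median ratio of 0.90. Tff1, the pit cell trefoil peptide, was at 77.5 CPM against 346 CPM (0.22), but baseline cells were at 81.0 CPM, a ratio of 0.96. Shares of cells with a Tff1 UMI were 50.6% and 55.3%. Among the other kept cells, the Cyba+Gsta1+Gsta2-high cells had 3770 CPM of Tff1, and 1 of these cells held 2441 of the 5943 Tff1 UMIs of all other kept cells. Without that cell the class was at 1836 CPM and the ratio of the chosen to the other kept cells was 0.38 (0.33 to 0.43). Gkn1 and Gkn2 were likewise uneven, with 353 of 1341 and 280 of 783 UMIs of the other kept cells in 1 cell, and their ratios of 0.36 and 0.31 were 0.49 and 0.48 without it. Gkn1 lay on the other side of 1 against baseline cells, at 1.2 (0.91 to 1.59), and without the Cyba+Gsta1+Gsta2-high cells, at 1.14 (0.89 to 1.44), intervals that hold 1. Of 5 counted genes of the mucous neck list 2 were at least 1.5 times higher and 1 lower, beside 1.9% and 6.64% of all counted genes, with a median ratio of 1.46 (1.44 against baseline cells). The higher genes were Aqp5, with the value above, and Tff2. Agr2, which helps fold mucins, was at 54.1 against 37.1 CPM (1.46, 1.22 to 1.74) with a UMI in 33.0% and 17.8% of cells, and its ratio to baseline cells was 2.87 (2.24 to 3.70). Tff2, the neck cell trefoil peptide, was at 31.5 against 15.3 CPM (2.06), yet 60 of its 93 UMIs in the chosen cells came from 1 cell, and without that cell the ratio was 0.74 (0.50 to 1.06). A Tff2 UMI was found in 5.99% of the chosen cells and 7.26% of the others. In cells led by CMO302, 1 of the 2 tags, the Tff2 ratio was 0.44 (0.21 to 0.84), and in cells led by CMO301 it was 3.67 (2.76 to 4.86). The chosen cells of these tags held 10 and 83 Tff2 UMIs. The cell with 60 was therefore led by CMO301, and the ratio of 3.67 depends on it. Gkn3, another neck cell gene, had a ratio of 0.21 and a ratio of 1.44 to baseline cells. No gene of the chief, endocrine, tuft, ciliated or non-epithelial lists reached 200 UMIs, and the 12 non-epithelial genes together were at 4.40 CPM against 11.9 CPM, with 4 of them at 0 in all kept cells. Of the parietal list only Kcnq1, a potassium channel gene, was counted, at a ratio of 1.19, and of 2 counted squamous genes Sbsn was lower, at 0.66. Epcam was at 618 against 694 CPM, and Cdh1, the E-cadherin gene, at 110 against 97.0 CPM.

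Of 34 secretoglobin genes in the matrix, 3 had a UMI in kept cells. Scgb1a1, the defining secretoglobin of club cells, had 5 UMIs in the chosen cells and 3 in the others. These were levels of 1.69 CPM (0.55 to 3.95) and 0.17 CPM (0.04 to 0.51), in 1.5% and 0.12% of cells. Scgb1c1 had 0 and 6 UMIs, and Scgb3a2 had none. Of 18 airway secretory genes in the list, which holds Scgb1a1 and Scgb3a2, 4 had enough UMIs to be counted, 5 had no UMI, and 1 was at least 1.5 times higher, beside 1.9% of all counted genes, with a median ratio of 1.22. That gene was Gabrp, a subunit of a chloride channel gated by GABA, at 260 against 139 CPM (1.87, 1.72 to 2.03). Against baseline cells 3 of the 4 were higher by 1.5 times, beside 2.36% of all counted genes, with a median ratio of 1.69, and the plasma protein gene Hp was at a ratio of 2.21. The defining secretoglobin of club cells was thus near 0 in the chosen cells.

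Regulators were read against the same shares of 1.9% higher and 6.64% lower over all counted genes, and 2.36% and 4.19% against baseline cells. Of 18 counted transcription factor genes, 1 was at least 1.5 times higher, Cebpd at 85.3 against 55.4 CPM (1.54, 1.34 to 1.77), and 0 were lower, with a median ratio of 0.99. Against baseline cells Cebpd was at 1.37 and 0 genes of the list passed 1.5 times. Among 9 counted retinoid genes 2 were higher and 3 lower, and against baseline cells 3 were higher and 0 lower. The 2 higher genes were Adh7 and Cyp26b1, an enzyme that breaks down retinoic acid (45.7 against 29.0 CPM, 1.57, and 1.62 against baseline cells). Of 5 counted Wnt and stem cell genes, Rnf43, a feedback inhibitor of Wnt receptors, was higher at 41.3 against 26.5 CPM (1.56). Against baseline cells Rnf43 was at 1.23 (0.97 to 1.55), and 0 genes of that list passed 1.5 times. Against the other kept cells no counted gene of the Notch, fetal-like, interferon or epithelial identity lists passed 1.5 times in either direction, and against baseline cells 1 interferon gene, Ifitm3, was higher, at 13.5 against 6.16 CPM (2.20, 1.36 to 3.56, from 40 and 35 UMIs). Of 12 early response and stress genes 1 passed 1.5 times, Hspa1a at a ratio of 0.54 (0.58 against baseline cells).

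The cell classes most like the chosen cells, by Spearman correlation of levels over 6682 genes of this library, were baseline cells (0.97), Cxcl2+Cxcl5-high cells (0.95) and replication-set cells (0.94), and the least like were Ndrg1+Ly6m-high cells (0.89). Cxcl2+Cxcl5-high cells, which carry neutrophil chemokines, were close in some of these genes and above the chosen cells in others. Lbp was at 116 CPM in the chosen cells and 88.0 CPM in them (ratio 1.32, 1.07 to 1.63), Cp at 157 and 129 CPM (1.22, 1.02 to 1.45), and Slc12a2 at 182 and 173 CPM (1.05, 0.90 to 1.23). Pglyrp1 was lower in the chosen cells, at 527 against 585 CPM (0.90, 0.83 to 0.98), and Cebpd was at 85.3 against 102 CPM (0.84, 0.68 to 1.03). The markers outside the rule differed more, with Trf at 342 CPM against 48.2 CPM (7.10, 5.56 to 9.20), Aox3 at 32.8 against 6.29 CPM (5.22, 2.64 to 11.8) and Cbr2 at 32.5 against 10.48 CPM (3.10, 1.79 to 5.76). Muc4 (2.55, 1.61 to 4.23) and Khdc1a (2.81, 2.39 to 3.32) were also higher in the chosen cells. Replication-set cells were nearer in Trf, at 161 CPM (2.12, 1.85 to 2.44), or 129.6 CPM (2.64, 2.27 to 3.08) without 1 cell that held 52 Trf UMIs, and further in Lbp, at 35.9 CPM (3.23, 2.44 to 4.36).

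The chosen cells also lay near each other in genes outside the rule. In 30 principal components of 2000 variable genes without the 21 genes of the rule, 43.5% of the 15 nearest neighbours of a chosen cell were chosen cells, against 12.3% for the other kept cells. The share of neighbours of the own class depends on class size, and the chosen cells were 14.1% of kept cells. It was 48.2% in mitotic cells, which were 7.08% of kept cells, and 39.3% in baseline cells, which were 27.6%. In the other 6 classes it was 9.98% to 32.5%. Such nearness was thus not particular to the chosen cells. The share of neighbours that were chosen cells was, among the other classes, highest in Cxcl2+Cxcl5-high cells (19.3%), baseline cells (17.0%) and replication-set cells (16.4%), and lowest in Ndrg1+Ly6m-high cells (2.50%). Genes that vary with Scgb3a1, such as the Tmem176 pair, remained in this space.

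Within the chosen cells, those with UMIs of both genes after thinning (160 cells) had Trf at 435 CPM (378 to 499), and those with Scgb3a1 alone (106 cells) at 305 CPM (247 to 372). Gstm1 was at 383 CPM (330 to 443) and 267 CPM (214 to 331). Cbr2 was at 39.6 CPM (23.8 to 61.8) and 18.9 CPM (6.92 to 41.1), intervals that overlap, and Aox3 and Aqp5 were close, at 22.9 and 28.3 CPM and at 1785 and 1774 CPM. Cp had a UMI in 44.8% (35.6% to 54.3%) of the 116 chosen cells with a Trf UMI and in 25.3% (18.6% to 33.1%) of the 150 without. Lbp had one in 39.7% and 22.7% of these cells, and Cbr2 in 7.76% and 5.33%. Over 266 thinned cells that share 1 library, Spearman correlations were computed for 66 pairs of genes as a description. Tmem176a with Tmem176b had 0.65, and all other pairs lay between -0.24 and 0.26. Scgb3a1 had 0.02 with Cyp2f2 and 0.14 with Trf, and the value for the 2 genes of the rule is shaped by the choice of cells on their sum.

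The 2 tags gave a view of the same cells in 2 groups of the library, although the labels do not tie a tag to a culture. Of 6682 genes, 184 were at least 1.5 times higher in the chosen cells led by CMO301 and 209 in those led by CMO302, and 580 and 720 were lower. Of the 127 higher genes, 72 passed 1.5 times within both tags, and of the 444 lower genes 235 did, where these genes had been picked from the cells of both tags together. The Trf ratio was 4.20 (3.76 to 4.69) in cells led by CMO301 and 4.73 (4.17 to 5.38) in cells led by CMO302. Aox3 was at 5.84 (3.82 to 8.93) and 7.02 (4.54 to 10.9), and Cbr2 at 3.21 (2.15 to 4.74) and 3.94 (2.73 to 5.65). These intervals overlap for each of the 3 markers. For 15 of 125 entries of named genes, of which 1 Aldoa entry held no UMI, the intervals of the 2 tags did not overlap. Among them were Scgb3a1, at 15.5 (14.97 to 15.98) and 21.7 (20.8 to 22.5), Tmem176a, at 2.45 (2.37 to 2.52) and 2.99 (2.89 to 3.09), and Aqp5, at 1.5 (1.44 to 1.57) and 1.78 (1.70 to 1.86). Krt4, a keratin gene, was on different sides of 1, at 1.23 (1.14 to 1.32) and 0.90 (0.82 to 0.98). All these intervals cover counting error and not the spread between cells, so they do not show a difference between the tags.

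**Figure D5:**
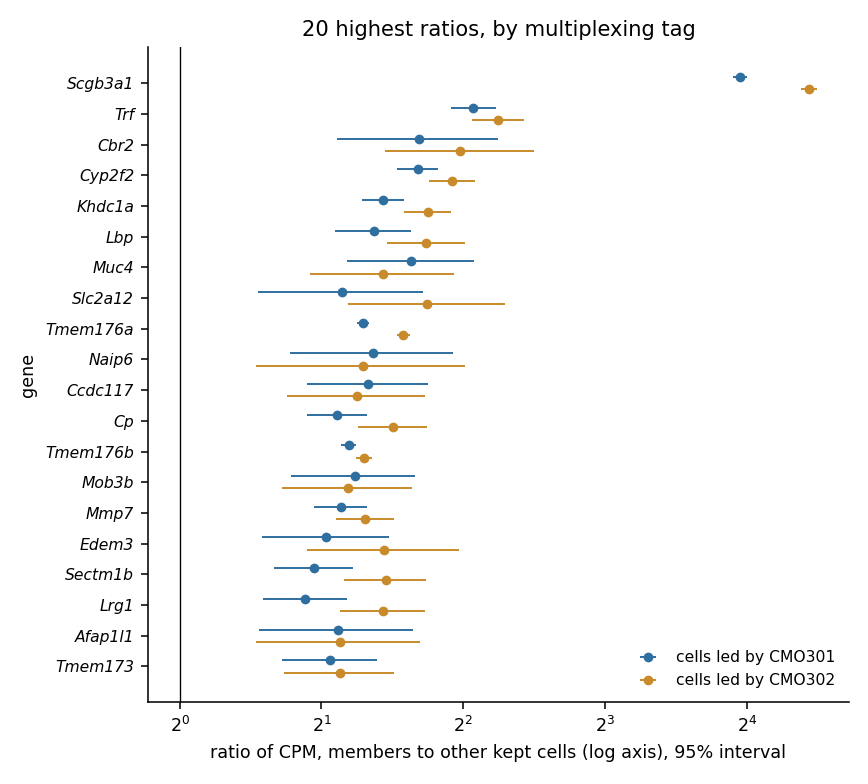
Ratio of CPM of the chosen cells to the other kept cells (log axis, 95% intervals) for the 20 genes with the highest ratios, computed apart in cells led by tag CMO301 and by tag CMO302. All 20 genes lie above 1 in both, and Trf is at 4.20 and 4.73.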

How the data were processed

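Single-cell counts of 1 library were analysed. The deposited counts are UMIs per gene and barcode without normalization by the authors, written by Cell Ranger 6.1.2, per the file headers. The design text of the series gives GRCm38/mm10 as the genome for mapping. The annotation the authors counted against is not given in the sources used here. The 12 multiplexing tags were kept out of totals.

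CPM of summed UMIs, shares and ratios were computed with exact Poisson, Clopper-Pearson and conditional binomial 95% intervals (Python 3.11.15, scipy 1.17.1, scanpy 1.11.5). PCR copies were removed by the UMIs, and cells of 1 library are not replicates. Genes with at least 200 UMIs in kept cells were counted past 1.5 times. Shares across depths and pairs within cells used cells thinned to 3000 UMIs, which left out 1 chosen and 56 other cells. Scrublet marked 12 cells as doublets (0.634%, 3 of them chosen cells), and they were kept, as the rule has no doublet step. An alternative removed them.

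The cells, markers and gene lists were chosen with earlier results of these data known. Named genes were those of the 8 sets, the 5 markers, the 20 highest and 15 lowest ratios with a UMI in at least 10% of cells of the higher side, and of each list the gene with the highest level, those with the highest and lowest ratio and those past 1.5 times. Genes outside this rule (Ftl1, Ldha, Hp, Ifitm3 and the chromosomal neighbours) were picked after their values were seen. Agr2, Epcam, Xist, the Y-linked genes and the secretoglobins other than Scgb3a1 were also named outside it. Alternatives changed the cell filter, threshold, depth, tag, reference cells, gene set, denominator, fold, count minimum and single cells. The steps were tested on simulated counts.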

Additional observations from a re-analysis of the deposited data

Results flagged for a closer look

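Tag counts lie outside the gene counts, and each chosen cell had 1 of 2 tags as its highest. CMO301 led in 52.8% of the 267 chosen cells (46.6% to 58.9%) and CMO302 in 47.2%. In the other kept cells CMO301 led in 56.7%. No label ties a tag to a culture, and there were no control samples.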

How the results depend on the processing

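The chosen cells and their levels were recomputed under 19 alternatives, of which leaving out the cell with most UMIs of each gene was chosen after seeing the data. The share of chosen cells was 18.0% at a threshold of 0.5, 9.73% at 1.5 and 11.8% when cells were thinned before scoring. The Trf ratio was 4.84 after that thinning, 5.25 with only the levels thinned, 3.79 against baseline cells, 5.12 as a mean over cells and 2.73 with Cyp2f2 alone as the set. The Aox3 ratio was 3.51 and 3.93 under the 2 thinnings, from 16 UMIs in the chosen and 34 in the other cells and from 20 and 30, and the Cbr2 ratio was 2.67 against baseline cells. Genes 1.5 times higher and lower numbered 61 and 220 of 2827 after thinning before scoring and 57 and 209 with levels thinned, where fewer genes reached 200 UMIs. They numbered 408 and 1095 of 10132 with at least 50 UMIs, and 1691 and 1763 of 13489 with any UMI, where genes with few UMIs enter. At a fold of 2 they numbered 24 and 113. In CMO302 cells 289 of 4204 genes were lower, with the minimum of 200 UMIs applied within those cells and not over all kept cells. Against baseline cells 280 were lower.

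Of ratios that were past 1.5 times in either direction, 27 values lay on the other side of 1 under an alternative; ratios nearer 1 were not counted. The counting interval of 18 of these values holds 1, so a crossing is not shown for them. Of the 9 whose interval does not hold 1, Tff2 was in CMO302 cells (0.44), which do not include its leading cell. The rest were against baseline cells, which by construction lack cells with a high score of any set. They were Cdc20 2.02, Cdk1 1.70, Cenpf 2.18, Cxcl5 1.81, Gsta1 1.45, Lcn2 1.21, Pcna 1.48 and Top2a 1.46. The values whose interval holds 1 were Tff2 without its leading cell (0.74), Aldh3a1 (1.03) and Gkn1 (1.14) without Cyba+Gsta1+Gsta2-high cells and, against baseline cells, Aldh3a1 1.2, Birc5 1.44, Ccnb1 1.92, Ccnb2 1.22, Gkn1 1.2, Gkn3 1.44, Hmmr 1.15, Mcm3 2.74, Mki67 1.19, Mt2 1.14 and Nusap1 1.28. With 4 or fewer UMIs on each side these were Mcm5 at 5.76 (0.46 to 303, 3 and 1 UMIs), Cyba at 1.92 (0.02 to 151, 1 and 1), Aspm at 2.56 (0.43 to 17.5, 4 and 3) and Gsta2 at 1.28 (0.11 to 11.2, 2 and 3). Without their leading cell Trf, Cbr2 and Aox3 stayed within their intervals.

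No paired analysis was possible because only 1 library was analysed. Depth limits Cbr2 and Aox3, which most cells lacked at a median of 8478 UMIs. How the results would vary between cultures or animals cannot be read from 1 library.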

Other observations

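Genes within 100 kb of the 5 markers were read from GENCODE M21 on GRCm38, after the values had been seen. Of 42 such neighbours, 15 had at least 200 UMIs, and 4 of these were at least 1.5 times higher in the chosen cells, where 1.9% of all counted genes were. Cnot6, a subunit gene of the deadenylase complex, lies on chromosome 11 (49671503 to 49712723, minus strand), 6385 bases from Scgb3a1, and was at 74.4 CPM against 41.6 CPM (1.79, 1.53 to 2.08). Dcxr, a carbonyl reductase gene on the strand of Cbr2 and 2208 bases from it, was at 169 against 94.1 CPM (1.79, 1.62 to 1.98), and Rac3, a small GTPase gene 5520 bases from Cbr2, was at 37.2 against 20.3 CPM (1.84, 1.47 to 2.28). Egln2, an oxygen-sensing hydroxylase gene 24998 bases from Cyp2f2, was at 96.8 against 58.1 CPM (1.67, 1.46 to 1.90). Topbp1, 74771 bases from Trf, was lower at 7.78 against 16.3 CPM (0.48, 0.30 to 0.73), and Srprb, 1864 bases from Trf, was at 13.2 against 11.2 CPM (1.17, 0.81 to 1.66). None of the 4 higher neighbours overlapped its marker. Neighbours with fewer than 200 UMIs were not counted. Among these, Flt4, 10871 bases from Scgb3a1, had a ratio of 4.94 (2.43 to 9.92, from 37 UMIs). Pycr1, 85720 bases from Cbr2, was at 2.45 (1.67 to 3.53, from 145 UMIs). Sgo2a, 87231 bases from Aox3, was lower at 0.32 (0.14 to 0.62, from 173 UMIs).

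The lowest of the 15 lowest ratios was that of the noncoding RNA gene Wincr1 (1.69 against 14.0 CPM, 0.12), which was at 0.17 against baseline cells. Of the chosen cells, 80.5% had a UMI of Xist, an RNA that coats the silenced X chromosome, and of the others 76.1%. Y-linked genes had a UMI in 4 chosen cells (1.5%) and in 46 others (2.83%).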
